A study of Drosophila melanogaster with 12 samples.

Results

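The data are whole-female expression profiles of Drosophila melanogaster that cross corpora allata knockout with sterility, and the quantity described here is the interaction, the knockout effect in sterile females minus the knockout effect in fertile females. All 12 arrays of the series enter it, 3 for each of 4 genotypes. In CAKO_ovoD flies the Aug21-Gal4 driver, recombined with UAS-GFP, drives the phosphatase inhibitor UAS-NIPP1 in the corpora allata, and the dominant OvoD1 allele makes the females sterile. The ovoD mutant flies carry OvoD1 with intact corpora allata. CAKO flies carry the knockout transgenes without OvoD1, and Wildtype flies carry neither the knockout nor OvoD1. Both are called fertile here, although the study reports that the knockout strongly reduced egg laying. Each sample pooled 25 whole females drawn from 4 cages of 125 females per genotype, aged 15 days by the sample labels and 14 days by the growth protocol. Flies were raised at an elevated temperature until shortly after eclosion to drive the ablation. The study followed it by GFP, which was lost or very faint in knockout adults. It also measured juvenile hormone by mass spectrometry, which was far lower in CAKO females than in females with intact corpora allata. The study calls the 3 samples per genotype independent biological replicates, with no further detail. The study's array legend assigns the fertile pair to wDAH and the sterile pair to a mix of w1118 and wDAH, while the deposited design gives the mixed background for Wildtype too, which leaves that of the fertile pair uncertain. By the legend, a difference between the pairs carries background as well as sterility, and these cannot be told apart.

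Juvenile hormone (JH) is a sesquiterpenoid made by the corpora allata, endocrine glands attached to the brain, and it acts through the receptors Met and gce, which induce the transcription factor gene Kr-h1. In adult females the hormone supports yolk formation and shapes the fat body, the fly's liver and adipose tissue. OvoD1 arrests egg chambers at an early stage, so that yolk is made but not taken up by growing oocytes. The interaction asks whether loss of the gland had the same effect on a gene in females with and without OvoD1. The study found that ovarioles of knockout females without OvoD1 were previtellogenic or discontinuous. The fertile pair thus differs in ovary state as well as in the gland, and these cannot be told apart.

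Of 11983 genes with a probe set annotated to them alone, 9969 passed the filter on low values and were tested. Values are log2 expression values with a floor at 2.13, and a difference of 1 log2 unit is a 2-fold change. The interaction is positive where the knockout effect was more positive in sterile than in fertile females. A gene was called at an adjusted p under 0.05 and a difference of at least 1.5-fold. Over the probe sets that passed the filter, replicate arrays correlated at 0.997 to 0.998 within each genotype. In jhamt, which encodes the methyltransferase at the end of JH synthesis, the knockout effect was -2.34 in the sterile and -1.53 in the fertile pair, and this difference was not called (interaction -0.82, SE 0.32, limma adjusted p = 0.2). The germ line gene ovo averaged 8.04 ± 0.06 in CAKO_ovoD, 8.22 ± 0.09 in ovoD mutant, 12.06 ± 0.03 in CAKO and 12.29 ± 0.08 in Wildtype females (SD, n = 3 each).

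The interaction was called for 377 genes, 3.78% of those tested. Of these, 144 were higher (1.44%), with a more positive knockout effect in sterile females, and 233 were lower (2.34%). The same rule called 465 genes (4.66%) for the sterile effect, with 236 higher (2.37%) and 229 lower (2.30%), and 642 genes (6.44%) for the fertile effect, with 400 higher (4.01%) and 242 lower (2.43%). With arrays scaled to equal muscle and photoreceptor levels, the split of the interaction became 119 higher and 367 lower, that of the sterile effect 136 and 742, and that of the fertile effect 303 and 449. A call held with each of the 12 arrays left out in turn for 201 of the 377 genes. Both effects enter the interaction and share their 12 arrays, so the patterns described next sort the called genes and are not separate tests.

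Most called genes passed the call for the knockout effect in 1 reproductive state and not in the other, which is what alone stands for here. In 117 genes the knockout effect was called higher in fertile females and not called in sterile females, and in 67 it was called lower in fertile females alone. In 60 genes the effect was called lower in sterile females alone, and in 39 it was called higher in sterile females alone. Both effects were called in the same direction in 28 genes, with the larger effect in the fertile pair for 24 of them, and in opposite directions in 6. An effect that missed the call was not always absent. The sterile effect had a limma adjusted p under 0.05 for 17 of the 117 genes and 1 of the 67, and the fertile effect for 6 of the 60 and 1 of the 39. In 60 further genes the difference was called although neither effect passed by itself. Read the other way, a call in 1 pair and not in the other was mostly not a called difference. Of 299 genes called in the sterile pair alone, the interaction was called for 99 (33.1%), and of 476 called in the fertile pair alone, for 184 (38.7%).

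**Figure D1:**
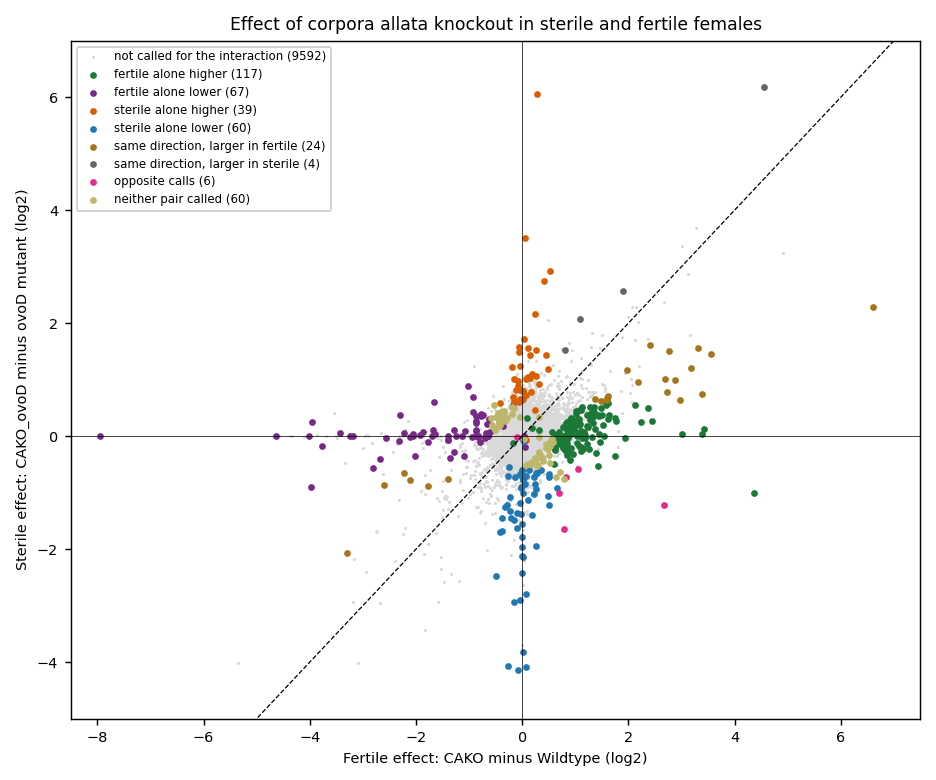
Knockout effect of each of the 9969 genes tested in sterile females (vertical axis, CAKO_ovoD minus ovoD mutant, log2) against the effect in fertile females (horizontal axis, CAKO minus Wildtype, log2). Points on the dashed line have equal effects, coloured points are the 377 genes called for the interaction by pattern, and most of these lie along 1 of the 2 zero lines.

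Genes that rose after knockout in fertile females alone formed the largest pattern, and their levels were already high in both sterile genotypes. Across the 117 genes the median level was 10.42 in CAKO_ovoD, 10.54 in ovoD mutant, 9.0 in CAKO and 8.04 in Wildtype females. Wildtype was the lowest of the 4 genotypes for 111 of them (94.9%), against 25.7% of all genes tested, and ovoD mutant exceeded CAKO for 110 (94.0%), against 50.9% of all genes. Among all genes tested the 4 medians were 7.83, 7.83, 8.18 and 8.16 in the same order of genotypes. Since a low Wildtype level is part of the contrast that chose these genes, the shares are given as a description. The sterile effect in the 117 genes had a median of 0.08, and for 75 of them it was smaller than 1.2-fold.

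**Figure D2:**
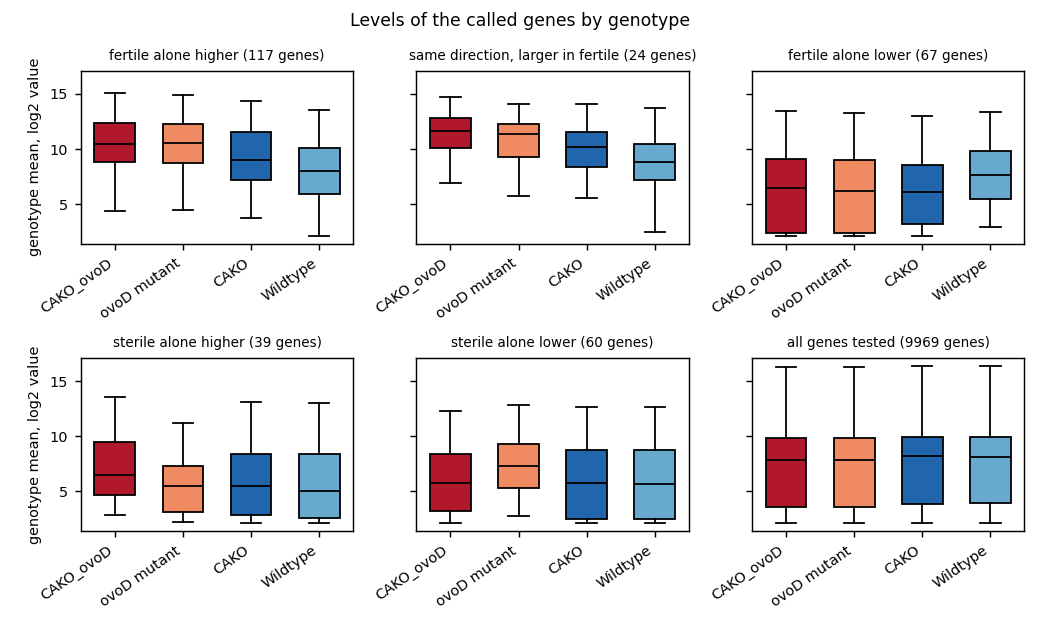
Genotype mean log2 values of the genes in 5 patterns of the interaction and of all 9969 genes tested, with boxes for the quartiles, a line for the median and whiskers to the last value within 1.5 box lengths. In genes higher after knockout in fertile females alone, the medians of both sterile genotypes (10.42 and 10.54) lie above those of CAKO (9.0) and Wildtype (8.04).

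Genes of hormone signalling, gut and fat body metabolism were among those with a fertile rise alone. Akh encodes adipokinetic hormone, a peptide of the corpora cardiaca, next to the corpora allata, that mobilizes fat and sugar. Its log2 values were 9.33, 9.49 and 9.34 in CAKO_ovoD, 9.44, 9.26 and 9.40 in ovoD mutant, 7.32, 6.87 and 7.0 in CAKO and 5.85, 5.88 and 6.04 in Wildtype females. The sterile groups overlapped and the fertile groups did not. The knockout effect on Akh was 0.02 (SE 0.11) in sterile females and 1.14 (SE 0.11), a 2.21-fold rise, in fertile females (interaction -1.12, SE 0.16, limma adjusted p = 0.00599). CCHa2, a peptide hormone of gut and fat body that acts on insulin-producing neurons, averaged 12.02 ± 0.05 in CAKO_ovoD and 12.16 ± 0.08 in ovoD mutant females, and 10.51 ± 0.11 in CAKO and 9.29 ± 0.11 in Wildtype females (interaction -1.37, SE 0.10, limma adjusted p = 0.000219). CCHa2 was named after its values were seen.

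CG10621, by sequence a homocysteine S-methyltransferase, measured 10.74, 10.79 and 10.62 in CAKO_ovoD, 11.27, 11.02 and 10.94 in ovoD mutant, 8.93, 8.90 and 8.74 in CAKO and 6.92, 7.15 and 7.27 in Wildtype females. It stood lower in every CAKO_ovoD than in every ovoD mutant sample, a difference that was not called, and higher in every CAKO than in every Wildtype sample (sterile -0.36, fertile 1.74, interaction -2.10, SE 0.15, limma adjusted p = 0.000219). CG17751, a member of the organic cation transporter family, had 8.96, 9.51 and 9.10 in CAKO_ovoD, 8.89, 8.87 and 9.0 in ovoD mutant, 6.80, 6.86 and 6.16 in CAKO and 3.78, 4.68 and 4.02 in Wildtype females. The fertile effect of CG17751 was 2.45 (5.45-fold) and the interaction -2.18 (SE 0.37, limma adjusted p = 0.0134). The adjacent tested gene, CG17752, was called in the same pattern (interaction -1.24, limma adjusted p = 0.0238). That call was lost without ovoD mutant replicate 1 or 3, CAKO replicate 1 or 2, or CAKO_ovoD replicate 3.

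Lsp2, a larval storage protein of the fat body, had the most negative interaction of any called gene, -5.37 (SE 0.43). It lay at 13.08, 13.43 and 12.66 in CAKO_ovoD and 14.09, 14.16 and 13.95 in ovoD mutant females, against 8.06, 8.50 and 8.04 in CAKO and 4.34, 4.05 and 3.14 in Wildtype females, so the 4 genotypes did not overlap and the step between the pairs exceeded that within either pair. CG13311 (interaction -3.35, SE 0.48) and the astacin protease gene CG15254 (-3.29, SE 0.37) also lay lowest in Wildtype females. CG13311 had 9.27 to 9.79 in CAKO_ovoD and 9.38 to 9.49 in ovoD mutant females, 7.59 to 7.76 in CAKO and 3.39 to 5.00 in Wildtype females. CG15254 had 8.65 to 8.88 in CAKO_ovoD and 8.57 to 8.75 in ovoD mutant females, 6.91 to 7.04 in CAKO and 2.92 to 4.21 in Wildtype females. Unlike in Lsp2, their sterile groups overlapped.

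Further members with this pattern, named after their values were seen, were CG8093 (interaction -1.99), Chs2, the chitin synthase of the gut lining (-1.96), the sorbitol dehydrogenase gene Sodh1 (-1.87), smp-30, of the regucalcin family (-1.58), the fatty acid elongase gene Elovl7 (-1.28), the transferrin gene Tsf1 (-1.13), the aldehyde oxidase gene AOX1 (-0.92) and the adiponectin receptor gene AdipoR (-0.65). AOX1 and smp-30 also had sterile effects of 0.44 (limma adjusted p = 0.00339) and 0.55 (limma adjusted p = 0.00843), smaller than their fertile effects of 1.35 and 2.13. The 8 calls held with each array left out, and their limma adjusted p ranged from 0.000361 to 0.0129. Pepck1, which encodes an enzyme of gluconeogenesis, was called as well (interaction -1.24, SE 0.23, limma adjusted p = 0.0181), but not without CAKO replicate 1.

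**Figure D3:**
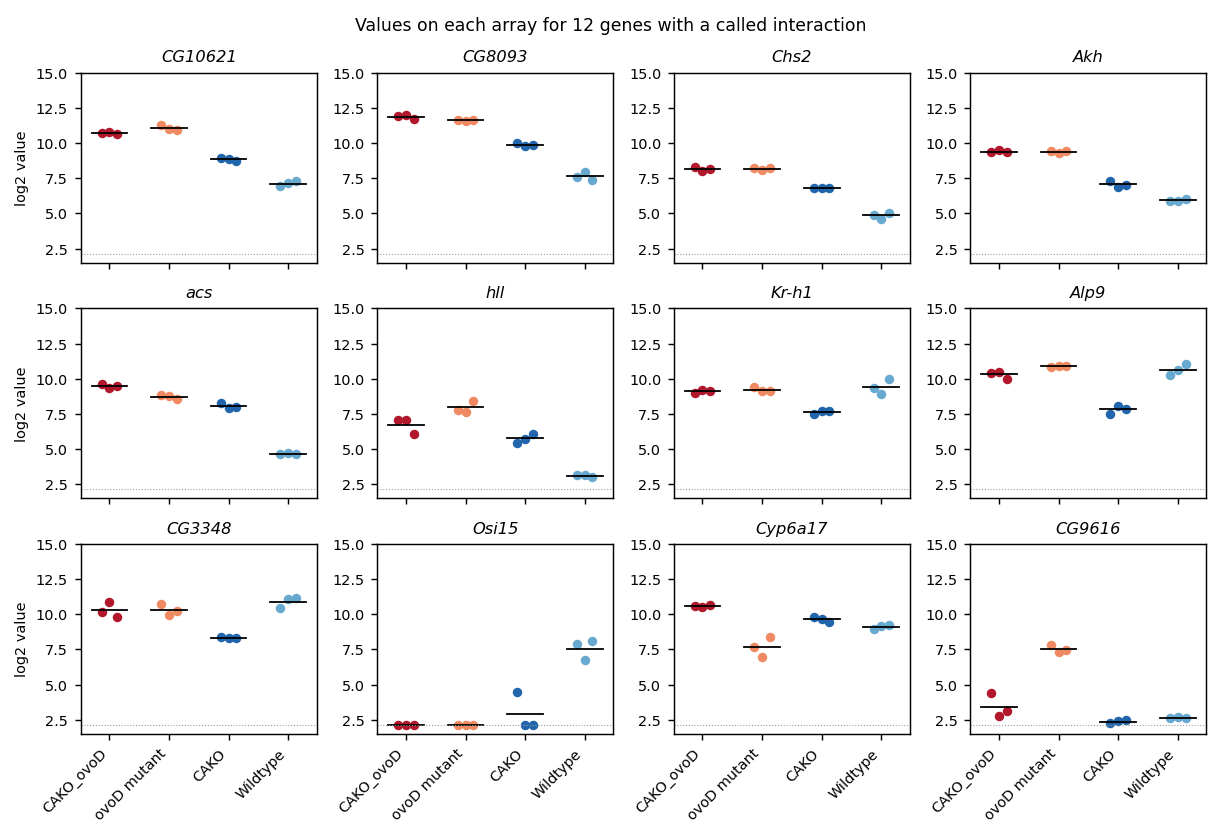
Log2 values on each array for 12 genes called for the interaction, with CAKO_ovoD, ovoD mutant, CAKO and Wildtype from left to right, a bar at the mean of 3 arrays and a dotted line at the floor of 2.13. CG10621, CG8093, Chs2 and Akh separate only the fertile pair by a called effect, hll separates the pairs in opposite directions, Kr-h1, Alp9 and CG3348 are low in CAKO, and CG9616 is high in ovoD mutant females.

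In 24 genes the knockout effect had 1 direction in both states and was larger in fertile females. The gene acs measured 9.61, 9.36 and 9.45 in CAKO_ovoD against 8.87, 8.77 and 8.52 in ovoD mutant females, and 8.29, 7.92 and 7.95 in CAKO against 4.67, 4.72 and 4.63 in Wildtype females. No sample of a knockout overlapped its control, and the rise was 1.69-fold in sterile and 10.4-fold in fertile females (interaction -2.63, SE 0.17, limma adjusted p = 0.000107). CG6283, a lipase family member, rose 1.55-fold in sterile and 7.84-fold in fertile females (interaction -2.34, SE 0.17). CG31955 rose 2.76-fold and 11.8-fold (-2.10, SE 0.26), again in sterile and in fertile females. CG2444 rose 2.31-fold in sterile females, and stood at 5.53 to 5.71 in CAKO against 2.27 to 2.74 in Wildtype females, where 2 of 3 samples lay at the floor (-1.97, SE 0.23). CG34040, the largest of the pattern at -4.33 (SE 0.45), stood at 12.49 to 12.72 in CAKO_ovoD, 9.94 to 10.62 in ovoD mutant, 10.89 to 11.57 in CAKO and 4.07 to 5.36 in Wildtype females.

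Much of this pattern depends on the scale of comparison. On log2 values the interaction compares ratios, whereas on linear values it compares differences in amount, and a gene with a high level in the sterile control can have a smaller ratio and a larger difference there. When the genotype means were set against each other on the linear scale, the interaction had the opposite sign for 38 of the 377 called genes. These included 16 of the 24 genes just described, acs, CG31955, CG2444 and CG34040 among them, and 15 of the 117 genes with a fertile rise alone, such as CG17751 and Sodh1. The sign of CG10621, CG8093, Akh, Lsp2, CG13311, CG15254 and CG6283 was the same on both scales.

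Opposite calls in the 2 states were rare. The gene hll, also called heimdall, encodes a long-chain acyl-CoA synthetase that activates fatty acids. Its values were 7.07, 7.06 and 6.05 in CAKO_ovoD against 7.76, 7.66 and 8.44 in ovoD mutant females, and 5.46, 5.74 and 6.07 in CAKO against 3.12, 3.15 and 2.98 in Wildtype females. Knockout samples were thus all below their control in the sterile pair and all above it in the fertile pair (sterile -1.22, SE 0.31; fertile 2.67, SE 0.31; interaction -3.90, SE 0.44, limma adjusted p = 0.00209). In CG3857 the sterile values were 9.51, 9.34 and 9.70 in CAKO_ovoD and 11.22, 11.16 and 11.07 in ovoD mutant females, and the fertile values 8.37, 8.33 and 8.05 in CAKO and 7.46, 7.37 and 7.54 in Wildtype females. That is a 3.11-fold fall in sterile and a 1.73-fold rise in fertile females (interaction -2.43, SE 0.15, limma adjusted p = 8.26e-05).

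The detoxification gene Cyp6a20 (sterile -1.01, fertile 0.69), the glycosyltransferase gene Ugt302E1 (-0.59 and 1.06) and the peroxiredoxin gene Prx6c (-0.72 and 0.82) had the same signs, with interactions of -1.70 (SE 0.16), -1.65 (SE 0.18) and -1.54 (SE 0.25). A probe set that Prx6c shares with Prx6b and CG12896 differed by -0.26 in sterile and 1.15 in fertile females. In these 5 genes ovoD mutant females had the highest and Wildtype females the lowest mean. The sixth gene, CG10077, has 2 probe sets that do not agree. The brighter one showed no called effect (interaction 0.08, limma adjusted p = 0.626), and the other measured 10.36 in CAKO_ovoD against 9.58 in ovoD mutant and 8.85 in CAKO against 9.72 in Wildtype females (interaction 1.65, limma adjusted p = 0.00559). Glut1, a glucose transporter gene, also had opposite calls, but on different probe sets, and its interaction was not called.

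Genes that fell after knockout in fertile females alone included the JH response gene Kr-h1. Its log2 values were 8.97, 9.22 and 9.12 in CAKO_ovoD, 9.37, 9.11 and 9.13 in ovoD mutant, 7.52, 7.72 and 7.69 in CAKO and 9.31, 8.94 and 9.998 in Wildtype females. CAKO stood below the other 3 genotypes in every sample, and the sterile groups overlapped. The knockout effect on Kr-h1 was -0.10 (SE 0.23) in sterile females and -1.77 (SE 0.23), a 3.42-fold fall, in fertile females (interaction 1.67, SE 0.32, limma adjusted p = 0.0209). The call was lost without ovoD mutant replicate 2, ovoD mutant replicate 3 or CAKO replicate 1, with adjusted p of 0.0513, 0.0502 and 0.0559 and interactions of 1.62, 1.64 and 1.61. No other member of the 5 JH receptor and response genes tested was called. Outside that list, JhI-26 was called (interaction -0.76, limma adjusted p = 0.0328). So were Jhbp11 (-1.01, limma adjusted p = 0.0444) and Jhbp14 (-0.66, limma adjusted p = 0.0128). These genes were picked with their values known. JhI-26 and Jhbp11 rose in fertile females alone (0.62 and 1.34), the opposite direction to Kr-h1. Their calls were lost in 9 and 10 of the 12 fits with an array left out, while that of Jhbp14 held. Of 7 genes of JH synthesis and breakdown 0 were called in the limma fit, 2 had an unadjusted p under 0.05, and the per-gene test of the study's methods, after Benjamini-Hochberg adjustment, called 0.

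Several of the larger differences in this pattern again placed CAKO below the other 3 genotypes. Alp9, an alkaline phosphatase gene, had 10.43, 10.47 and 9.997 in CAKO_ovoD, 10.80, 10.92 and 10.89 in ovoD mutant, 7.52, 8.08 and 7.87 in CAKO and 10.23, 10.64 and 11.03 in Wildtype females. The fertile fall in Alp9 was 7.0-fold (interaction 2.24, SE 0.31, limma adjusted p = 0.00533). Its tested neighbour Alp10 fell 1.83-fold in the sterile and 6.05-fold in the fertile pair (interaction 1.73, SE 0.27, limma adjusted p = 0.0102). The pantetheinase family gene vanin-like measured 8.16, 8.39 and 8.45 in CAKO_ovoD, 8.79, 8.72 and 8.73 in ovoD mutant, 6.19, 6.47 and 6.04 in CAKO and 8.35, 8.92 and 9.45 in Wildtype females. Its interaction was 2.26 (SE 0.34), and that of CG3348 was 2.53 (SE 0.44), where CAKO samples lay at 8.29 to 8.39 and all others at 9.81 to 11.16.

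Across all 67 genes CAKO was the lowest genotype for 32 (47.8%, against 21.4% of all genes tested). Wildtype was the highest for 45 (67.2%, against 27.6%). The contrast that chose these genes also shapes this order, so the shares are given as a description. CG13992 was high in Wildtype alone, with 3.10 to 3.54 over the samples of CAKO_ovoD, ovoD mutant and CAKO and 4.67, 5.53 and 5.54 in Wildtype females (interaction 1.94, SE 0.29). CG13299 differed from these, since it stood at 9.05 ± 0.22 in CAKO_ovoD and 8.16 ± 0.12 in ovoD mutant females, a difference that was not called (adjusted p = 0.0591), and at 9.67 ± 0.40 in CAKO and 10.70 ± 0.46 in Wildtype females (interaction 1.92, SE 0.36, limma adjusted p = 0.0187). MsrA, a methionine sulfoxide reductase also known as an ecdysone-induced gene, averaged 9.76 ± 0.13 in CAKO_ovoD, 9.33 ± 0.11 in ovoD mutant, 9.22 ± 0.12 in CAKO and 10.15 ± 0.40 in Wildtype females (interaction 1.36, SE 0.25, limma adjusted p = 0.0174). The neuropeptide gene Mip, named after its values were seen, fell 1.71-fold in fertile females alone (interaction 1.13, SE 0.13, limma adjusted p = 0.00205).

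Genes called in sterile females alone were fewer. Among the 39 that rose, CAKO_ovoD was the highest genotype for 29 (74.4%, against 30.3% of all genes tested). This share too is a description, since the contrast that chose the genes shapes it. CG15369 measured 10.53, 11.36 and 10.32 in CAKO_ovoD and 6.63, 3.90 and 3.49 in ovoD mutant females, while its CAKO values (2.41 to 2.73) and Wildtype values (2.14 to 2.41) lay near the floor (interaction 5.78, SE 0.99, limma adjusted p = 0.0135). Cyp6a17, a cytochrome P450 gene, had 10.60, 10.49 and 10.66 in CAKO_ovoD against 7.68, 6.94 and 8.37 in ovoD mutant females, and 9.78, 9.66 and 9.45 in CAKO against 8.97, 9.16 and 9.20 in Wildtype females. Here ovoD mutant was the lowest genotype and its samples spread by more than 1 log2 unit (interaction 2.40, SE 0.41, limma adjusted p = 0.0134).

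DnaJ-1, which encodes a co-chaperone of heat shock proteins, was likewise low in ovoD mutant females, with 12.17 ± 0.25 in CAKO_ovoD, 10.94 ± 0.22 in ovoD mutant, 12.42 ± 0.10 in CAKO and 12.62 ± 0.12 in Wildtype females (interaction 1.42, SE 0.20, limma adjusted p = 0.00599). DnaJ-1 was named after its values were seen. CG15553 rose 6.74-fold, from low levels, in sterile females, with 6.09, 5.40 and 5.35 in CAKO_ovoD against 2.82 to 2.88 in ovoD mutant females (interaction 2.34, SE 0.23). The carbonic anhydrase gene CAH5 was at least 3.50-fold higher in CAKO_ovoD (4.53 ± 0.25) than in ovoD mutant females, which lay at the floor. CG14642 measured 4.49, 4.50 and 4.68 in CAKO_ovoD females. It gave the identical value of 2.98 in all 3 ovoD mutant samples, 1 CAKO and 1 Wildtype sample, with 2.79 to 2.97 in the other 4, so no fold is given although the interaction was called (limma adjusted p = 2.77e-05). In CG1304, a serine protease gene, both effects were called in the same direction, 6.18 in sterile and 4.55 in fertile females, with 2 of the 6 control samples at the floor. Of the 4 genes called in the same direction in both pairs with the larger effect in the sterile pair, it alone kept its interaction call with each array left out (interaction 1.62, SE 0.27).

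Among the 60 genes that fell in sterile females alone, ovoD mutant was the highest genotype for 52 (86.7%, against 24.7% of all genes tested). Here as well the contrast that chose the genes shapes the order, so the share is a description. CG9616 had 4.37, 2.80 and 3.13 in CAKO_ovoD and 7.79, 7.30 and 7.43 in ovoD mutant females, against 2.24, 2.42 and 2.45 in CAKO and 2.63, 2.72 and 2.59 in Wildtype females. The sterile fall was 16.8-fold, and both fertile genotypes lay near the floor (interaction -3.80, SE 0.48, limma adjusted p = 0.00374). UGP, the gene of the enzyme that makes UDP-glucose, measured 3.07, 3.03 and 3.05 in CAKO_ovoD, 5.50, 5.75 and 6.31 in ovoD mutant, 2.90, 3.05 and 3.05 in CAKO and 3.05, 2.88 and 2.86 in Wildtype females. Only ovoD mutant stood apart (interaction -2.87, SE 0.24, limma adjusted p = 0.000471). A CAKO and a Wildtype sample shared the identical value of 3.0493, so the size of this difference may be a bound.

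Ugt50B3, a glycosyltransferase gene, fell 5.58-fold in sterile females and differed by -0.49 in fertile females (interaction -1.99, SE 0.19). Jhbp6, named for its similarity to hemolymph JH-binding proteins of other insects, had 5.52, 5.45 and 4.89 in CAKO_ovoD against 6.68, 6.54 and 6.85 in ovoD mutant females, and 4.15, 4.31 and 4.15 in CAKO against 4.17, 3.65 and 4.21 in Wildtype females. The sterile groups did not overlap and the fertile groups did (interaction -1.59, SE 0.28, limma adjusted p = 0.0153). CG9981 fell 2.09-fold in sterile females (interaction -1.55, SE 0.29). Its Wildtype samples lay at the floor (2.22 to 2.26) and its CAKO samples near it (2.66 to 2.78), so its fertile effect is not a measured size. CROT, the carnitine octanoyltransferase gene of fatty acid oxidation, averaged 9.91 ± 0.11 in CAKO_ovoD and 10.82 ± 0.13 in ovoD mutant females, and 9.62 ± 0.04 in CAKO and 9.64 ± 0.07 in Wildtype females (interaction -0.89, SE 0.10, limma adjusted p = 0.00244). CROT was named after its values were seen.

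A genotype was taken as at the floor when all 3 of its samples lay within 1.5-fold of the lowest value, and a pair at the floor has no measurable effect. Of the genes tested, 186 had the sterile pair at the floor, with 18 higher and 2 lower interaction calls, 283 had the fertile pair at the floor, with 7 higher and 16 lower, and 1660 had both pairs there, with 0 calls by limma or the adjusted per-gene test and 16 genes at an unadjusted p under 0.05. No genotype lay at the floor for 7771 genes, which held 114 higher and 210 lower calls (4.17%). In the first 2 classes the interaction rests on 1 measured pair, and the value of the other is a bound.

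With the sterile pair at the floor, the largest calls were for genes expressed in Wildtype females and at or near the floor everywhere else. Osi15, a member of the insect-specific Osiris family, had 2.13 in all 6 sterile samples, 4.45, 2.13 and 2.13 in CAKO and 7.86, 6.72 and 8.07 in Wildtype females. One CAKO sample was thus above the floor and none reached Wildtype (limma adjusted p of the fertile effect = 0.00106). The fit shares 1 estimate of the spread over all 4 genotypes. For Osi15 the SD was 1.34 in CAKO, 0.73 in Wildtype and 0 in both sterile genotypes. Its p-value therefore does not measure the spread of the fertile pair alone, and this limit applies to other genes with a pair at the floor. Osi6 lay at 2.13 in all CAKO_ovoD, ovoD mutant and CAKO samples and at 10.09, 9.27 and 10.91 in Wildtype females, at least 165-fold lower in CAKO. St4, a sulfotransferase gene, averaged 2.81 ± 0.49 in CAKO and 6.25 ± 0.41 in Wildtype females. CG40298, CG7465 and the cuticle protein gene Cpr47Eg were at least 9.32-fold, 3.69-fold and 2.95-fold lower in CAKO than in Wildtype females.

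With the fertile pair at the floor, the largest calls were for genes expressed in ovoD mutant females and lower after knockout. CG31809 had 2.24, 2.42 and 2.41 in CAKO_ovoD and 6.14, 6.14 and 6.23 in ovoD mutant females, at least 10.9-fold lower, with 2.23 to 2.41 in all fertile samples. A probe set annotated to both CG31809 and CG31810, which entered no gene result, was far brighter, with 8.46, 8.58 and 8.85 in CAKO_ovoD, 9.40, 9.39 and 9.91 in ovoD mutant, 6.77 to 6.999 in CAKO and 7.26 to 7.60 in Wildtype females, so the value of CG31809 holds for its own probe set only. CG13403 fell 17.0-fold, with values of 3.34, 3.42 and 3.38 in CAKO_ovoD against 7.60, 7.25 and 7.54 in ovoD mutant females. The sex-biased P450 gene Cyp4d21 had 3.55, 3.31 and 4.35 against 7.86, 8.14 and 7.63 in the same genotypes. CG5157 had 3.64, 3.66 and 2.45 in CAKO_ovoD, the last of them at the floor, against 6.14, 6.30 and 6.13 in ovoD mutant females. CG3635 was at least 6.10-fold lower. The orphan nuclear receptor gene Hr38 and the lipase gene Lip2, named after their values were seen, belonged to this class as well, with interactions of -1.56 (SE 0.28) and -2.12 (SE 0.19).

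Gene lists were read against the 3.78% of all genes called. Detoxification families lay above it. Among 76 cytochrome P450 genes, 3 were higher and 13 lower (21.1%), and the median interaction was -0.29, against 0.00 for all genes tested. The P450 calls that held with each array left out were, among the lower, Cyp28d1 (interaction -1.50), Cyp6a20, Cyp6a9, Cyp9b1 and Cyp4d21, and, among the higher, Cyp6a17 and Cyp6d2. Cyp28d1 stood at 13.36 ± 0.13 in CAKO_ovoD and 13.09 ± 0.03 in ovoD mutant females, and at 12.44 ± 0.03 in CAKO and 10.68 ± 0.23 in Wildtype females. UDP-glycosyltransferases had 1 higher and 6 lower of 34 (20.6%), with a median of -0.10. Glutathione S-transferases were split, 2 higher (GstE1, lost without CAKO replicate 3, and GstD3, lost in all leave-one-out fits but those without Wildtype, ovoD mutant or CAKO replicate 3) and 2 lower of 33. Of the lower ones, GstD10 averaged 5.76 ± 0.36 in CAKO_ovoD and 7.14 ± 0.17 in ovoD mutant females, with 3.31 ± 0.03 in CAKO and 3.34 ± 0.02 in Wildtype females, and GstT4 rose 1.90-fold in fertile females alone (interaction -0.72).

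Lipid storage and oxidation genes had 4 lower and no higher calls of 29 tested (13.8%). These were Akh, Lip4, whd and AkhR. Lip4, an acid lipase gene, had 10.19, 10.10 and 10.09 in CAKO_ovoD against 11.11, 10.73 and 10.70 in ovoD mutant females, and 9.77, 9.48 and 9.51 in CAKO against 9.15, 9.03 and 9.05 in Wildtype females. Knockout samples lay below their control in the sterile pair and above it in the fertile pair, although the fertile effect of 0.51 was too small to be called (interaction -1.23, SE 0.16, limma adjusted p = 0.00426). The call of AkhR, the receptor of adipokinetic hormone, came from a dimmer probe set and was lost in all leave-one-out fits but that without ovoD mutant replicate 1. Sugar and glycogen metabolism had 1 higher (Mal-B1) and 3 lower calls (Mal-A6, Hex-C and Pepck1) of 26, and only that of the maltase gene Mal-A6 held with each array left out (interaction -0.85, SE 0.15). With arrays scaled to equal muscle and photoreceptor levels, 1 higher and 7 lower were called. Both peptidoglycan recognition genes called, PGRP-LF and PGRP-LA, were lower, of 7 tested with a median of -0.62, and PGRP-LF and PGRP-LA are adjacent tested genes. The call of PGRP-LA was lost without CAKO_ovoD replicate 2, and 4 of the 7 genes were called lower with arrays centred on their median or scaled to muscle and photoreceptor levels.

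Other families held few calls in number, but several had a share above the 3.78% of all genes called. The share was 8.6% of cuticle proteins, 5.6% of odorant-binding proteins and 9.5% of eggshell genes. Among these families it was highest in the small yellow family, with 2 of 10. Cuticle proteins had 4 higher and 2 lower of 70, odorant-binding proteins 2 lower of 36 (Obp44a, -1.10, and Obp18a, -0.65; 1 higher and 4 lower with the muscle and photoreceptor scaling), and the yellow family 2 lower of 10 (yellow-f2, -0.76, and yellow-f, whose call was lost in 9 of the 12 fits with an array left out). Among 21 eggshell genes 2 were called higher (9.5%), Vm32E and pip, with a median interaction of 1.94 over the list. For 10 of the 21 the sterile pair lay at the floor, so the median reflects the fertile pair, where 9 fell. Vm32E lost its call in 9 of the 12 fits with an array left out, all but those without Wildtype replicate 1, CAKO replicate 1 or CAKO replicate 2, and pip lost it without Wildtype replicate 2. The yolk protein genes Yp1, Yp2 and Yp3 had interactions of 0.06 (-0.03 with that scaling), 0.37 and 0.41, none of them called. Yp1 lay at 15.87 to 16.20 in all samples, close to the highest value of each array (16.23 to 16.41). Whether its signal was limited at the top of the range was not tested. Of 42 germ line genes only zpg was called (2.4%), with 6.43, 6.86 and 6.14 in CAKO_ovoD against 7.47, 7.62 and 7.73 in ovoD mutant females, and 11.81 to 11.89 in CAKO against 11.70 to 11.81 in Wildtype females (interaction -1.23, SE 0.22). With the muscle and photoreceptor scaling 2 germ line genes were called lower.

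**Figure D4:**
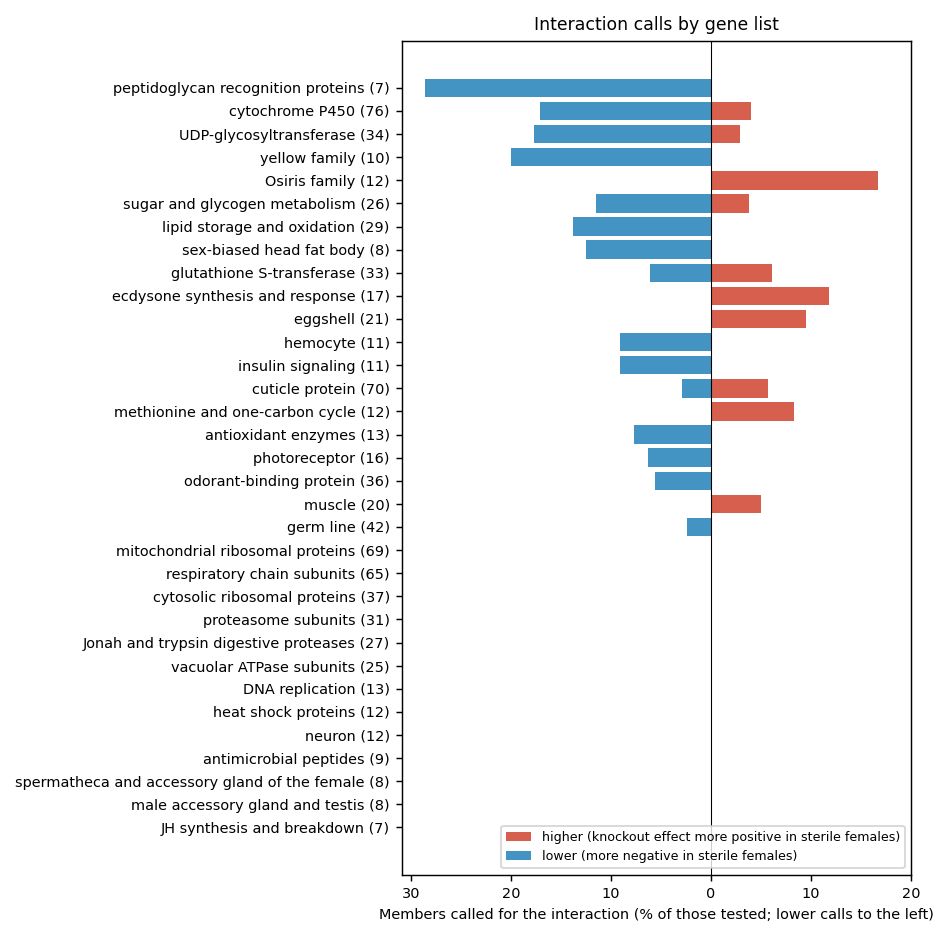
Share of tested members called for the interaction in the 33 gene lists with at least 7 genes tested, with higher calls to the right, lower calls to the left and the number tested in parentheses. P450 genes (21.1%) and UDP-glycosyltransferases (20.6%) have mostly lower calls, and ribosomal, respiratory chain, proteasome and vacuolar ATPase lists have none, against 3.78% of all genes tested.

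Housekeeping complexes showed no called interaction. Cytosolic and mitochondrial ribosomal proteins, respiratory chain, proteasome and vacuolar ATPase subunits together had 0 calls among 227 genes in the limma fit, where 24 had an unadjusted p under 0.05, and 0 with the adjusted per-gene test. With arrays scaled to equal muscle and photoreceptor levels, 1 mitochondrial ribosomal protein gene was called lower. The Jonah and trypsin proteases of the gut had 0 of 27 in the limma fit (4 at an unadjusted p under 0.05, 0 with the adjusted per-gene test), although 7 were called for the sterile and 8 for the fertile effect. The interaction was called lower for 1 of them with arrays centred on their median and for 2 with the muscle and photoreceptor scaling. Jon25Bii, whose 2 effects were -4.02 in sterile and -5.34 in fertile females, had an interaction of 1.33 (SE 1.17, 95% confidence interval -1.33 to 3.98). Obp99b (-1.67, SE 0.67, adjusted p = 0.223), ana (0.43, SE 0.18, adjusted p = 0.237), Ilp2 (-0.31, SE 0.16, adjusted p = 0.355) and Ilp5 (-1.07, SE 0.30, adjusted p = 0.0852) were not called in the limma fit either, while Ilp5 was called without CAKO replicate 1 (-1.32, adjusted p = 0.0196). Ilp5 lay at 2.37, 2.80 and 2.80 in Wildtype and at 3.19 to 3.95 in CAKO females, so its fertile effect rests on values near the floor.

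Because each sample is RNA of whole females, fewer cells of a type and less RNA per cell cannot be told apart. The summed level of 42 germ line markers lay at 13.48 to 13.55 in CAKO_ovoD, 13.51 to 13.59 in ovoD mutant, 16.57 to 16.66 in CAKO and 16.64 to 16.74 in Wildtype females, as log2 of the sum per sample. That of 21 eggshell markers was 7.32 to 7.77, 8.65 to 9.29, 14.40 to 16.09 and 16.77 to 17.48 in the same order of genotypes, with 10, 11, 2 and 0 markers at the floor. Between the pairs, muscle and photoreceptor markers ran the other way, higher in sterile than in fertile females. The 20 muscle markers summed to 16.85 to 17.09 in CAKO_ovoD, 16.64 to 16.71 in ovoD mutant, 16.37 to 16.45 in CAKO and 16.15 to 16.19 in Wildtype females, and the 16 photoreceptor markers to 15.75 to 15.81, 15.64 to 15.72, 15.13 to 15.27 and 15.23 to 15.34. The median interaction was 0.03 for muscle markers, which turned to -0.06 with arrays scaled to these genes, and 0.19 for photoreceptor markers (0.10 with that scaling). The step between the pairs in these markers moves with the step seen in the genes that rose in fertile females alone, and its part in their interaction was not tested. Mlp60A and Galphaq are the only genes of the muscle and photoreceptor lists called, each on a probe set dimmer than the one printed. Hemocyte markers had a median interaction of -0.39 with 1 lower call of 11 (2 with the muscle and photoreceptor scaling), and 22 of 24 male markers lay at the floor in every genotype.

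Called genes were spread over the chromosomes, with 3.09% of tested genes called on X, 4.14% on 2L, 3.76% on 2R, 4.15% on 3L, 3.86% on 3R and 0 of 65 genes on chromosome 4 by limma or the adjusted per-gene test, where 14 had an unadjusted p under 0.05. In 15 places, adjacent tested genes were called in the same direction, 32 genes in all, and no expected number was worked out for comparison. The longest runs held 3 genes, CG34040 with CG4363 and CG4377, and PGRP-LA with PGRP-LF and UGP. In the second of these UGP fell in sterile females, whereas the PGRP genes rose in fertile females.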

How the data were processed

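Whole-female RNA was hybridized to 12 Affymetrix Drosophila 2.0 arrays, 3 for each of 4 genotypes. The deposited values are log2 expression values that the authors made with quantile normalization and GC-RMA (the GCRMA version was not given in the sources used here). Arrays carry no read depth, so their number limits the precision. Of 18952 probe sets, 13647 had 1 annotated gene and were used for naming. Probe sets whose mean fell in the lowest quartile (25%) in each of the 4 genotypes were dropped, and 13871 remained. The wording of the methods also allows a stricter reading of this filter, which was run as an alternative.

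A model of 4 genotype means was fitted with limma 3.58.1 (R 4.3.3; lmFit, eBayes with a trend, 8 residual degrees of freedom), after it had been tested on simulated data. P-values were two-sided and Benjamini-Hochberg adjusted over all 13871 probe sets per contrast. A gene was called through any of its probe sets unless another was called the opposite way, and its printed value is that of the probe set with the highest mean.

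Genes were named by the size of their interaction within each pattern and floor class, among calls that held with each array left out, with all opposite calls, up to 4 such members per gene list and the genes the study followed, 75 in all, of which 63 were called. Other names are marked as chosen after their values were seen or stand beside a small count. Members and gene lists were chosen with earlier results of these data known. Alternatives were the methods' t-test, other filters, fold thresholds, centrings, variance models, probe set rules and floor margins, a replicate block and leaving out each array.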

Additional observations from a re-analysis of the deposited data

Results flagged for a closer look

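The interaction, a limma test of the difference between the knockout effects in sterile and in fertile females, was called for 377 genes. The named genes with a called difference are given with their interaction on the log2 scale in parentheses, negative where the knockout effect was less positive in sterile females. Groups of 3 arrays were too small to look for single arrays far from the rest. With a rise in fertile females alone these were Lsp2 (-5.37), CG13311 (-3.35), CG15254 (-3.29), CG17751 (-2.18), CG10621 (-2.10), Cyp28d1 (-1.50), Akh (-1.12), Obp44a (-1.10), Cpr65Au (-0.89), Mal-A6 (-0.85), PGRP-LF (-0.84), yellow-f2 (-0.76) and GstT4 (-0.72). Genes that fell in fertile females alone included CG3348 (2.53), vanin-like (2.26), Alp9 (2.24), CG13992 (1.94), CG13299 (1.92), Kr-h1 (1.67), MsrA (1.36) and Cpr64Ad (0.64). A rise in sterile females alone was measured for CG15369 (5.78), Cyp6a17 (2.40), CG15553 (2.34), CAH5 (1.91), CG14642 (1.63) and Cpr97Eb (0.94). A fall in sterile females alone was measured for CG9616 (-3.80), UGP (-2.87), Ugt50B3 (-1.99), Jhbp6 (-1.59), CG9981 (-1.55), GstD10 (-1.35), zpg (-1.23), Lip4 (-1.23), whd (-0.95) and Ugt301D1 (-0.72). Effects of 1 direction, larger in fertile females, were those of CG34040 (-4.33), acs (-2.63), CG6283 (-2.34), CG31955 (-2.10) and CG2444 (-1.97). The effect of CG1304 (1.62) was larger in sterile females. Opposite effects were called for hll (-3.90), CG3857 (-2.43), Cyp6a20 (-1.70), Ugt302E1 (-1.65) and Prx6c (-1.54). Neither effect was called by itself for Obp18a (-0.65). With the sterile pair at the floor, where its effect cannot be measured, these were Osi6 (7.95), Osi15 (4.64), CG40298 (3.59), St4 (3.50), CG7465 (2.23) and Cpr47Eg (2.09). With the fertile pair at the floor, the differences were those of CG13403 (-4.15), Cyp4d21 (-4.05), CG31809 (-3.82), CG3635 (-2.85) and CG5157 (-2.79). Where a sample lay at the floor, and for CG14642 with its repeated value in control females, the fitted difference is not a measured size. The same may hold for Cpr97Eb, at 3.39 in every Wildtype sample, and Cpr64Ad, at 3.44 to 3.45 in every sterile sample. It may also hold for UGP, with the identical value of 3.0493 in a CAKO and a Wildtype sample.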

How the results depend on the processing

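Of the 75 named genes, 4 changed the sign of a value near 0 that was not called: under muscle and photoreceptor centring the brighter probe set of CG10077 gave -0.01, ovo -0.05, Yp1 -0.03 and Fbp1 -0.09, and under median centring Fbp1 gave -0.01. The others kept their direction under every alternative that gave them a value; the stricter quartile filter left 3 of them untested. The count of 377 genes became 710 with the per-gene t-test at an unadjusted p under 0.05 and 283 after Benjamini-Hochberg adjustment, 643 with no fold threshold and 189 at 2-fold. The filters (292 and 416), median centring (431), muscle and photoreceptor centring (486), the fit with no variance trend (352), array weights (299) and 1 probe set per gene (391) gave counts within 1.5 times of it. Leaving out 1 array gave 257 to 362 genes, of which 243 to 293 were among the 377, and gave 386 to 471 for the sterile and 542 to 640 for the fertile effect. Under muscle and photoreceptor centring, which shifts the interaction by -0.09, the sterile effect by -0.23 and the fertile effect by -0.14, the sterile effect was called for 878 genes instead of 465. This centring adds the same shift to the sterile effect of every gene, and the sterile calls went from 236 higher and 229 lower to 136 and 742. Why muscle and photoreceptor levels differed between genotypes was not tested. With a floor margin of 0.2 log2 units the genes called with the fertile pair at the floor became 11 instead of 23, since fewer values count as floor. Of the named genes, Osi15 (4.58, adjusted p = 0.0772) and PGRP-LF (-0.81, adjusted p = 0.066) were not called with array weights, Cpr64Ad (0.55, adjusted p = 0.0925) was not called under muscle and photoreceptor centring, and 10 were not called at 2-fold. The unadjusted per-gene t-test also called jhamt, Obp99b and Ilp5. Replicate numbers did not pair the samples: deviations of arrays with the same number correlated at -0.16 to 0.15, over 0.1 in 2 of 18 pairs. With the replicate block the interaction was called for 321 genes, 300 of them shared, the sterile effect for 424 and the fertile effect for 600. About 49.1% to 49.5% of probe sets lay at the floor on each array, where differences cannot be measured.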
